A study of Mus musculus with 6 samples.

Results

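The expression of 10 transcription factors of the splanchnic mesoderm was followed in tissue cut from beside the dorsal aorta of mouse embryos: Foxf1, Foxf2, Gata4, Gata5, Gata6, Hand1, Tcf21, Nkx2-3, Barx1 and Prrx1. They were found by the gene symbol of the array platform, and all 10 of 10 were measured, by 1 probe set each, among 24675 named genes. The samples were ventral tissue, which lay underneath the aorta, and dorsal tissue, found above the aortic roof and below the notochord, at embryonic day 10.5 in C57Bl/6 embryos, with 3 arrays per region. Both regions were cut by laser microdissection from the same embryos, without a genetic change or a treatment, and were chosen by position. The number of embryos or sections behind an array is not stated in the labels.

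The splanchnic mesoderm is the inner layer of the lateral plate. It wraps the gut tube, faces the body cavity and lies ventral to the aorta, and it gives rise to the mesenchyme and smooth muscle of the viscera. Foxf1 and Foxf2 are forkhead factors that respond to hedgehog signals from the endoderm. Gata4, Gata5 and Gata6 are zinc finger factors of heart, gut and coelomic lining. Hand1 and Tcf21 are basic helix-loop-helix (bHLH) factors, Hand1 of the lateral plate and heart and Tcf21 of visceral and urogenital mesenchyme. Nkx2-3, of gut and spleen mesenchyme, Barx1, of stomach mesenchyme, and Prrx1, of limb and lateral mesenchyme, carry homeodomains. Genes of this layer are a check of the subaortic cut, and the question was whether their signals were higher on the ventral side.

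None of the 10 factors differed between ventral and dorsal tissue past an adjusted p of 0.05 in limma, where 0% of all genes passed. Without the replicate block 0 of 10 passed too, against 0.00405% of all genes. Their adjusted p ranged from 0.444 to 0.961. There were 5 with a positive ventral minus dorsal difference and 5 with a negative one, where 42% of all genes were positive. The median over the 10 was -0.02 on the log2 scale, against -0.06 over all genes. Without genes under the median signal, 8 factors remained, 4 of them positive, with a median of -0.02. All genes then had a median of -0.006, and 49.1% were positive. Cyclic loess, a scaling between arrays, gave -0.01 for the 10 and -0.005 for all genes. With the array medians set equal the values were 0.03 and -0.02, so the sign of the factor median depended on the scaling. Without genes under the 25th percentile of signal, 9 factors remained, with a median of -0.06 against -0.03 for all genes. At an unadjusted p under 0.05 there was 1 factor of 10, Foxf2, and it was higher in dorsal tissue. All genes reached that level in 10.2% of cases, 4.32% ventral-higher and 5.9% dorsal-higher, so the share among the factors was that of the array as a whole. The ventral-higher share of these genes moved with the scaling, from 42.2% in the deposited values to 52.4% with cyclic loess and 53.5% with the array medians set equal. Foxf2 was also the 1 factor at that level without the block, where 11.2% of all genes were.

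Signals are RMA values in log2 units, so that 1 unit is a 2-fold difference in signal. The array medians over all genes lay between 3.20 and 3.27. One library, ventral array 1, stood apart from the other ventral arrays for several named genes. Among them Sox2, Nes, Tcf21 and Tcf3 were higher on it, and Twist1 and Erh were lower. Tcf3 was at 4.88 on it, against 4.02 and 4.02, and Twist1 at 4.20, against 5.71 and 5.46. Erh was at 1.97, against 7.22 and 5.46, and it was low in dorsal array 1 too, at 1.46. Ventral array 1 had Sox2, a factor of neural and foregut progenitors, at 7.61, against 2.20 and 2.72 in the other ventral arrays and 2.28 to 2.73 in the dorsal arrays. Pou3f2, another neural factor, was at 3.81 on it, against 3.47 and 3.78 in the other ventral arrays. Without this array, in a fit with no replicate block, the differences of the factors were -0.38 for Foxf1, -0.71 for Foxf2, 0.13 for Gata4, -0.03 for Gata5, 0.72 for Gata6, -0.39 for Hand1, 0.24 for Tcf21, 0.17 for Nkx2-3, 0.09 for Barx1 and 0.51 for Prrx1. In these pieces of tissue, fewer cells of a type and less RNA per cell cannot be told apart.

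The factors lay in the low part of the signal range, as did most genes. Their means over the 6 arrays ran from 2.53 for Nkx2-3 to 4.40 for Gata4. On every array the median of the factors was above that of all genes, by 0.58 to 0.84. Olfactory and vomeronasal receptor genes, 1360 in all, gave a measure of the low end, since they are known from sensory neurons of the nose. Signals of different probe sets do not rank transcript amounts, and the receptor genes serve here only to mark the low end. Of the 10 factors, 0 had a mean above 4.66, the 95th percentile of the receptor genes, and 7.12% of the other genes did. Taken array by array, 5 of 60 factor values exceeded the receptor 95th percentile of their own array. The factor values above it were Tcf21 in ventral array 1, Gata6 in ventral array 2, Gata6 and Hand1 in dorsal array 2, and Gata4 in dorsal array 3. Nkx2-3 was above the receptor median in 2 of 6 arrays, and the other 9 factors were above it in all 6. Neither count at the 95th percentile sets the factors apart from the other genes. The receptor genes are no test of background, so the factors were not shown to be above it. Their signals may understate differences between transcripts.

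**Figure D1:**
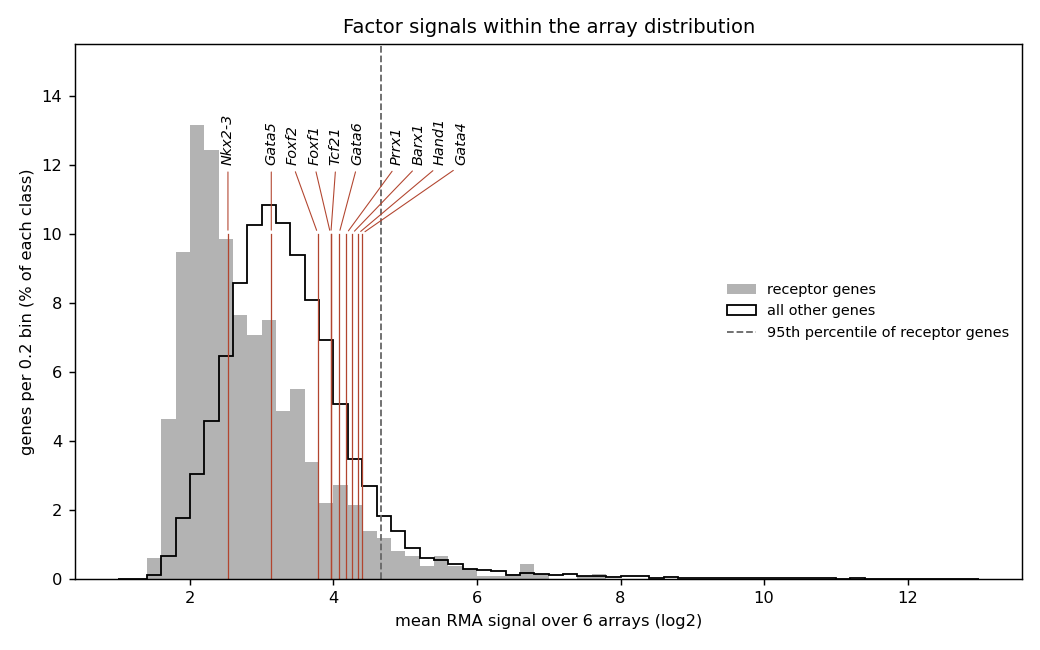
Distribution of the mean RMA signal over 6 arrays (log2) for 1360 receptor genes (grey bars) and all other genes (black line), in percent of each class per bin. The red lines mark the 10 factors, from 2.53 for Nkx2-3 to 4.40 for Gata4, all left of the dashed receptor 95th percentile at 4.66.

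The forkhead pair had the lowest differences of the 10. Foxf2 was at 3.44, 3.44 and 3.41 in ventral arrays 1, 2 and 3, against 4.25, 4.48 and 3.67 in the dorsal arrays. Every dorsal array was above every ventral array, the only case among the 10 factors, and 12% of all genes showed the same separation in that direction. The opposite separation, with every ventral array on top, was shown by 0 of 10 factors and 6.74% of all genes. The difference was -0.71 ± 0.21 (SE), with a 95% interval from -1.24 to -0.18. Its unadjusted limma p was 0.0176, which ranked 969 of 24675 genes, and its adjusted p was 0.444 with the replicate number as a block and 0.357 without it. Foxf2 was higher in dorsal tissue in 3 of 3 same-numbered pairs, as were 21.8% of all genes. Foxf1 was at 3.73, 3.78 and 3.77 in the ventral arrays, against 4.66, 3.51 and 4.29 in the dorsal arrays. The groups overlapped, because dorsal array 2 was the lowest of the 6. Its difference was -0.40 ± 0.26 (SE), with an interval from -1.05 to 0.26 and a limma adjusted p of 0.619. The value rested on single arrays, with -0.72 without dorsal replicate 2 (fitted with no replicate block), -0.14 without dorsal replicate 1 (same fit) and -0.13 without both arrays numbered 1. None of these fits gave an adjusted p under 0.05.

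The ventral values of both forkhead genes lay unusually close together. The ventral SD was 0.02 for Foxf1 and 0.02 for Foxf2, at percentiles 1.56 and 0.75 of the ventral SDs of all genes. Their dorsal SDs were 0.59 and 0.42, at percentiles 89.9 and 77.0 of the dorsal SDs. This feature was picked after the values were seen. The dorsal SD exceeded the ventral one in 6 of 10 factors and in 66.0% of all genes.

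The promoter of Foxf2, the factor whose groups did not overlap, and that of Tcf21, the factor with the highest positive difference, are shown for reference. Both windows run from 250 bases before the annotated gene start and cover the first 50 bases of the gene, from RefSeq on GRCm38.p6, 5′ to 3′ on the gene's strand. Foxf2 is read from chr13:31625566-31625865 on the plus strand and Tcf21 from chr10:22820094-22820393 on the minus strand. Capitals mark the letters of any motif searched.
Foxf2: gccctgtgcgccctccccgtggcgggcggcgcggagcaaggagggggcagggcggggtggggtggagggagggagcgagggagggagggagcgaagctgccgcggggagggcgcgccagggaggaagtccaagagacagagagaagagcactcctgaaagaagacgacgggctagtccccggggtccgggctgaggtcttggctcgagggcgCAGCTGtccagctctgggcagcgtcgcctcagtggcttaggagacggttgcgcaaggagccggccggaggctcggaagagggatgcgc
Tcf21: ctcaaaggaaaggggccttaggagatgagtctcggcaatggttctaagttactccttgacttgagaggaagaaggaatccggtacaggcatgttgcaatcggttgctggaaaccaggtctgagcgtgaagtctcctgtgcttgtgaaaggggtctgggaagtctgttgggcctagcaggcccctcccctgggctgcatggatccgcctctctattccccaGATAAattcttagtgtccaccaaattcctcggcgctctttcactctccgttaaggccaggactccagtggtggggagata
Of the 10 factors 6, namely Foxf2, Gata5, Tcf21, Nkx2-3, Barx1 and Prrx1, had a window in the table. Both strands were searched for motifs of the factor families, and the shares are of 32851 windows of the same length. The bHLH letters CANNTG occurred in 3 of 6 (Foxf2, Gata5 and Nkx2-3) and in 72.3% of all windows. The GATA letters GATAA occurred in 2 of 6 (Tcf21 and Prrx1) and in 25.4% of all. The homeodomain letters TAATTA and the Nkx2 letters CACTTNA each occurred in Prrx1 alone, against 5.29% and 11.5% of all windows. The forkhead letters TGTTTNC and the Gli letters GACCACCCA, searched because Gli factors carry the hedgehog signal, occurred in 0 of 6, against 20.5% and 0.253% of all. The printed windows hold 1 match each, CANNTG in Foxf2 and GATAA in Tcf21, with no overlap between motifs. The windows differed in CpG content, from 6 CpG pairs in Prrx1 and 8 in Tcf21 to 27 in Foxf2 and 50 in Barx1, against a median of 7 over all windows. A match describes letters only.

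**Figure D2:**
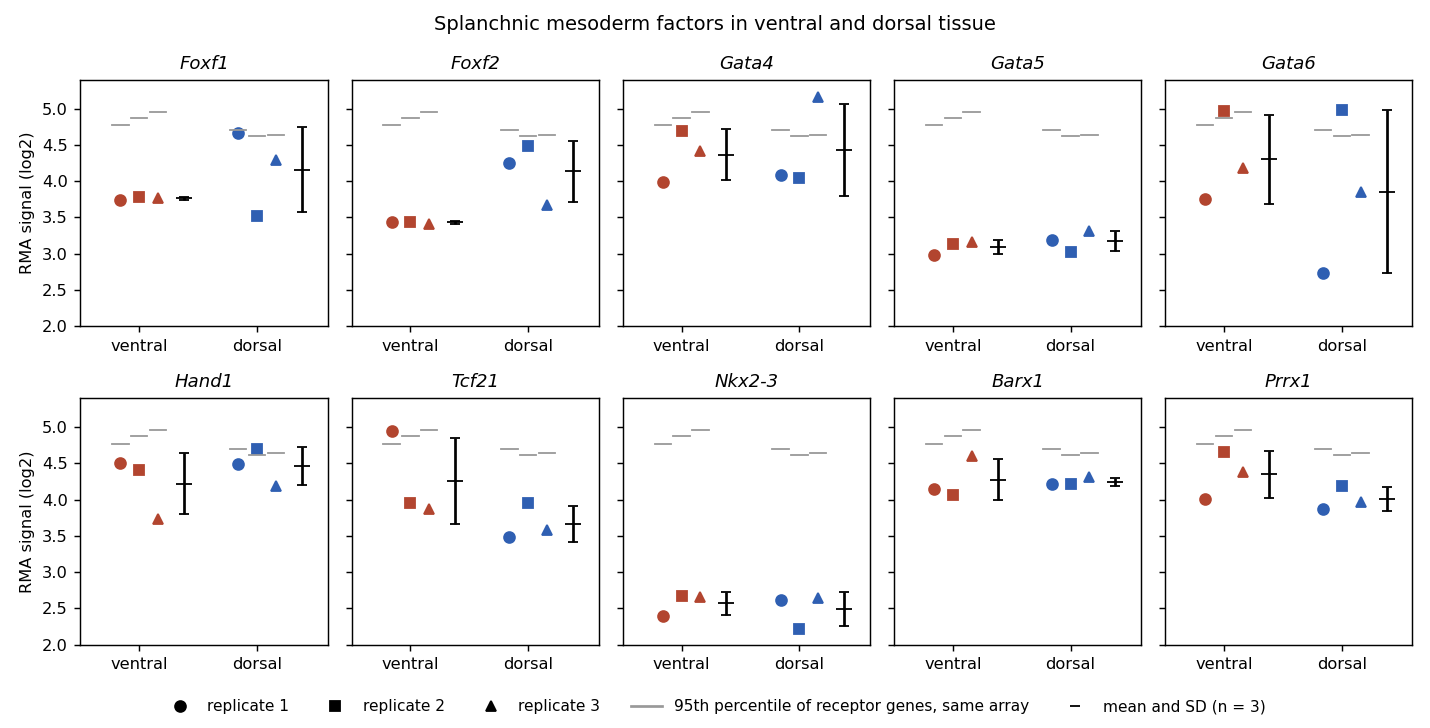
RMA signal (log2) of each factor in 3 ventral arrays (red, left) and 3 dorsal arrays (blue, right), with the symbol giving the replicate number, the black bar the mean and SD, and the grey dash the 95th percentile of the receptor genes on the same array. Foxf2 is the factor whose ventral values, 3.41 to 3.44, all lie below its dorsal values, 3.67 to 4.48.

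The GATA factors did not move as a group. Gata4 was at 3.99, 4.69 and 4.42 in the ventral arrays, against 4.09, 4.04 and 5.16 in the dorsal arrays. Dorsal array 3 was the highest and ventral array 1 the lowest, and the groups overlapped. Its difference was -0.06 ± 0.29 (SE), with an interval from -0.77 to 0.65 and a limma adjusted p of 0.948. The sign turned without dorsal replicate 3, to 0.30 in the fit with no replicate block. Gata5 was at 2.98, 3.14 and 3.16 in the ventral arrays, against 3.19, 3.03 and 3.31 in the dorsal arrays. All 6 values fell within 0.33 of each other, and the difference was -0.09, with an interval from -0.52 to 0.35. Gata6 was at 3.76, 4.97 and 4.18 in the ventral arrays, against 2.73, 4.98 and 3.85 in the dorsal arrays. It had the widest range of the 10 factors, 2.24, and its dorsal SD was at percentile 98.5 of all genes. Array 2 was the highest and array 1 the lowest in both regions. The difference was 0.45 ± 0.24 (SE), with an interval from -0.16 to 1.05. Its limma adjusted p was 0.560 with the block and 0.771 without it. Without dorsal replicate 1, the lowest value, the difference was -0.11 in the fit with no replicate block.

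The bHLH factors had differences of opposite sign. Tcf21 was at 4.95, 3.95 and 3.88 in the ventral arrays, against 3.48, 3.95 and 3.58 in the dorsal arrays. Ventral array 1 was the highest by about 1 unit, and the other ventral arrays overlapped the dorsal ones. Tcf21 had the highest difference of the 10, 0.59 ± 0.31 (SE), with an interval from -0.18 to 1.36 and a limma adjusted p of 0.554. Without both arrays numbered 1 the difference was 0.15, and without ventral replicate 1 alone, with no replicate block, it was 0.24. The same array carried the high Sox2 value. Hand1 was at 4.51, 4.41 and 3.74 in the ventral arrays, against 4.49, 4.71 and 4.19 in the dorsal arrays. Ventral array 3 was the lowest, and the other values overlapped. The difference was -0.24 ± 0.18 (SE), with an interval from -0.70 to 0.21. Without ventral replicate 3, in a fit with no replicate block, it was -0.0019.

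The 3 homeodomain factors all had positive differences, of which that of Prrx1 was the highest. Prrx1 was at 4.01, 4.65 and 4.39 in the ventral arrays, against 3.87, 4.19 and 3.96 in the dorsal arrays. It was the one factor that was ventral-higher in 3 of 3 same-numbered pairs, a pattern of 13.3% of all genes. The groups overlapped, since dorsal array 2 was above ventral array 1. The difference was 0.34 ± 0.18 (SE), with an interval from -0.09 to 0.78 and a limma adjusted p of 0.545. Barx1 was at 4.15, 4.07 and 4.60 in the ventral arrays, against 4.21, 4.21 and 4.31 in the dorsal arrays. The dorsal values lay inside the ventral range, and the difference was 0.03, with an interval from -0.42 to 0.48. Nkx2-3 was at 2.39, 2.67 and 2.65 in the ventral arrays, against 2.62, 2.21 and 2.64 in the dorsal arrays. It was below the median of all genes on every array, and the difference was 0.08, with an interval from -0.42 to 0.58.

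The intervals state which ventral excess the signals leave. Of the 10 intervals, 9 included 0, and the one that did not was that of Foxf2. An interval clear of 0 is the same event as an unadjusted p under 0.05, which 10.2% of all genes reached. The upper end of the intervals corresponded to a ventral over dorsal ratio of 0.885 for Foxf2, 1.16 for Hand1, 1.20 for Foxf1 and 1.27 for Gata5. It was under 1.5 for 6 factors in all. The share of all genes was not counted, so this number does not set the factors apart from other genes. The upper end was highest for Tcf21, at 2.56, and next for Gata6, at 2.07. These are ratios of signals, not of transcripts. As a group the factors had medians of 3.88, 4.01 and 3.82 in ventral arrays 1, 2 and 3, against 3.98, 4.11 and 3.91 in the dorsal arrays. Each ventral median was below that of its same-numbered dorsal array, by an amount smaller than the spread among arrays of a region. The groups overlapped. The median of all genes was lower in each ventral array too, at 3.21, 3.20 and 3.24 against 3.24, 3.27 and 3.27. Within pairs 1, 2 and 3 the differences of the factors had medians of -0.08, 0.05 and -0.07. Over all genes these were -0.04, -0.08 and -0.03.

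**Figure D3:**
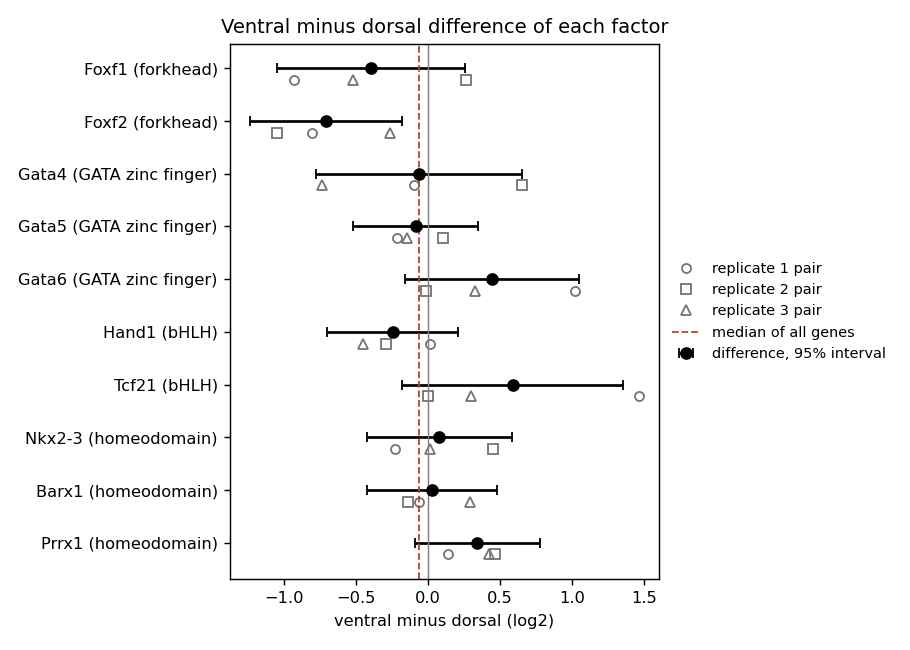
Ventral minus dorsal difference in RMA signal (log2) of each factor, with the limma difference and its 95% interval in black and the 3 same-numbered pairs as open symbols below it. Only the Foxf2 interval, -1.24 to -0.18, lies to one side of 0, as for 10.2% of all genes. The dashed line is the median of all genes at -0.06.

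Foxf1 and Foxf2 each lie beside other forkhead genes in the gene order of the GRCm38.p6 annotation, so their neighbours were read as well. On chromosome 8 these were Fendrr, a long non-coding RNA next to Foxf1, Mthfsd, Foxc2, a factor of paraxial and vascular mesoderm, and Foxl1, a hedgehog-responsive factor of gut mesenchyme. On chromosome 13 they were G630018N14Rik, Foxq1, 1700018A04Rik, Foxc1, a factor of somite and head mesenchyme, and Gmds, an enzyme of GDP-fucose synthesis. These 9 are the measured genes within 6 places of either factor. Of the 9, 0 passed the limma threshold over all genes, 2 (Foxc2 and Foxc1) were at an unadjusted p under 0.05, 5 had a negative difference and 4 a positive one, and the median was -0.17. Without the block the 2 at that p were Foxc2 and 1700018A04Rik, and Foxc1 was at 0.062. Over all genes 10.2% were at that p with the block, 11.2% without it, and 42% had a positive difference. Foxc2 was at 3.90, 3.70 and 3.69 in the ventral arrays, against 4.56, 4.07 and 4.16 in the dorsal arrays. Foxc1 was at 4.15, 4.88 and 4.50 in the ventral arrays, against 4.76, 5.10 and 5.12 in the dorsal arrays. The Foxc2 groups did not overlap and the Foxc1 groups did. Among the other neighbours the Gmds groups did not overlap, with 2.80 to 3.07 in the ventral arrays against 3.21 to 3.50 in the dorsal arrays. Such a separation with dorsal on top was shown by 12% of all genes. The differences of Foxc2 and Foxc1 were -0.50 ± 0.17 and -0.48 ± 0.18 (SE). Their unadjusted limma p was 0.0289 and 0.0385 and their adjusted p 0.464 and 0.475. Without ventral replicate 1 the Foxc1 difference was -0.30. Foxq1 had a difference of -0.43, Gmds -0.37, Mthfsd -0.17, G630018N14Rik 0.02, Foxl1 0.03, Fendrr 0.26 and 1700018A04Rik, which lies next to Foxf2, 0.46. Leaving out arrays moved Foxq1 between -0.64 and -0.04, Mthfsd between -0.31 and -0.03, 1700018A04Rik between 0.28 and 0.60 and Fendrr between 0.02 and 0.52. The Fendrr and Foxf1 differences had opposite signs, with intervals that overlapped (-0.33 to 0.85 for Fendrr). Whether array probes tell apart transcripts of such close genes was not tested.

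**Figure D4:**
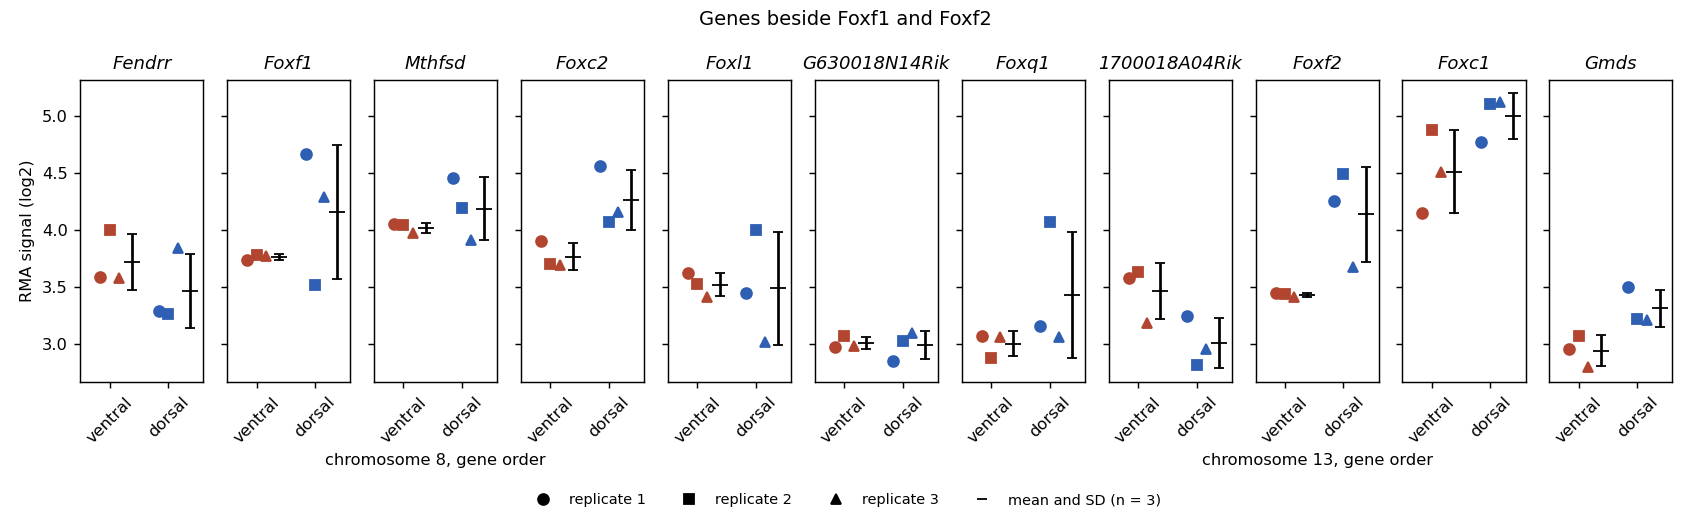
RMA signal (log2) of Foxf1, Foxf2 and their neighbours in gene order on chromosome 8 (left 5 panels) and chromosome 13 (right 6 panels), ventral in red left of dorsal in blue, with the mean and SD of 3 arrays in black. Foxc2, with ventral values of 3.69 to 3.90 and dorsal values of 4.07 to 4.56, is separated like Foxf2, as is Gmds, with 2.80 to 3.07 and 3.21 to 3.50, and the other neighbours are not.

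Other genes of the splanchnic and lateral plate programme gave no call either. Genes said to have passed are those past an adjusted p of 0.05 in limma. Over all genes 0% passed, 10.2% were at an unadjusted p under 0.05 and 42% had a positive difference. Without the block 11.2% of all genes were at that p. Of 19 measured lateral plate and visceral mesoderm genes, 0 passed, 1 (Tbx2) was at an unadjusted p under 0.05 (2 without the block, with Nkx2-5), 9 were positive and the median was -0.00. Tbx2, a T-box factor of heart and visceral mesoderm, was at 3.38 ± 0.15 in ventral and 2.75 ± 0.10 in dorsal tissue (SD, n = 3 each), with an adjusted p of 0.437 by limma. Nkx2-5, a factor of heart and spleen mesoderm, was at 4.29 ± 0.15 in ventral and 4.72 ± 0.23 in dorsal tissue. Among 19 hedgehog and BMP signalling genes, which act upstream of Foxf1 and of the GATA factors, 0 passed, 1 (Bmp7) was at an unadjusted p under 0.05, 9 were positive and the median was -0.00 as well. Bmp7, a BMP ligand, was at 4.52 ± 0.22 in ventral and 4.08 ± 0.14 in dorsal tissue, and Smad6, an inhibitor of BMP signalling, was at 3.32 ± 0.16 in ventral and 3.82 ± 0.39 in dorsal tissue. Of 16 genes of visceral mesenchyme and smooth muscle, 0 passed, 1 (Pdgfra) was at an unadjusted p under 0.05, 13 were negative and the median was -0.15. Pdgfra, a growth factor receptor of mesenchyme, had a difference of -0.60 ± 0.17 (SE), Fgf10, a ligand of organ mesenchyme, 0.35, Cnn1, a smooth muscle calponin, -0.37, and Acta2, smooth muscle actin, -0.80. Leaving out arrays moved Fgf10 between 0.19 and 0.49, Cnn1 between -0.52 and -0.19 and Acta2 between -1.35 and -0.18.

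Partners of the factors were next. The 13 measured ones included the FOG cofactors of GATA factors, the E proteins that pair with Hand1 and Tcf21, and the Id and Twist proteins that compete for or join those pairs. Of these 13, 0 passed, 2 (Twist1 and Id4) were at an unadjusted p under 0.05, 8 were positive and the median was 0.27. Over all genes 10.2% were at that p and 42% were positive. Twist1, which can pair with Hand factors and marks mesenchyme, was at 4.20, 5.71 and 5.46 in the ventral arrays, against 6.62, 6.37 and 6.57 in the dorsal arrays. Every dorsal value was above every ventral one, as for 12% of all genes. The difference was -1.40 ± 0.35 (SE), with an unadjusted p of 0.008 and an adjusted p of 0.435 in limma, and it was -0.89 without both arrays numbered 1. Id4, an inhibitor of bHLH factors, had a difference of -0.65 ± 0.17 (SE). Of 15 relatives in the same families, 0 passed, 2 (Foxc2 and Foxc1) were at an unadjusted p under 0.05, 10 were negative and the median was -0.21. Without the block the 2 at that p were Foxc2 and Nkx2-5.

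Genes of the sclerotome and somite, the paraxial mesoderm beside the notochord, stood beside the lower ventral values of the forkhead genes. Of 12 such genes 0 passed, 3 (Twist1, Foxc2 and Nkx3-2) were at an unadjusted p under 0.05, 10 were negative and the median was -0.30. Without the block 4 were at that p, with Uncx. All genes were dorsal-higher at that p in 5.9% of cases and positive in 42%. The groups of 4 of the 12 did not overlap, all with dorsal on top, as for 12% of all genes. The mean log2 signal over the 12 was 3.70 to 3.82 in the ventral arrays and 4.04 to 4.22 in the dorsal arrays, without overlap. That mean includes Twist1, with a difference of -1.40. The list was chosen with earlier results of these data known, so its separation is a description and no independent support. Besides Twist1 and Foxc2, Nkx3-2 had a difference of -0.51 ± 0.18 (SE) and Uncx of -0.65 ± 0.28 (SE), which was -0.30 without both arrays numbered 2. The list holds Foxc2 and Twist1, which stand in other lists here too. The part of paraxial mesoderm in the values of Foxf1, Foxf2 and their neighbours was not tested.

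**Figure D5:**
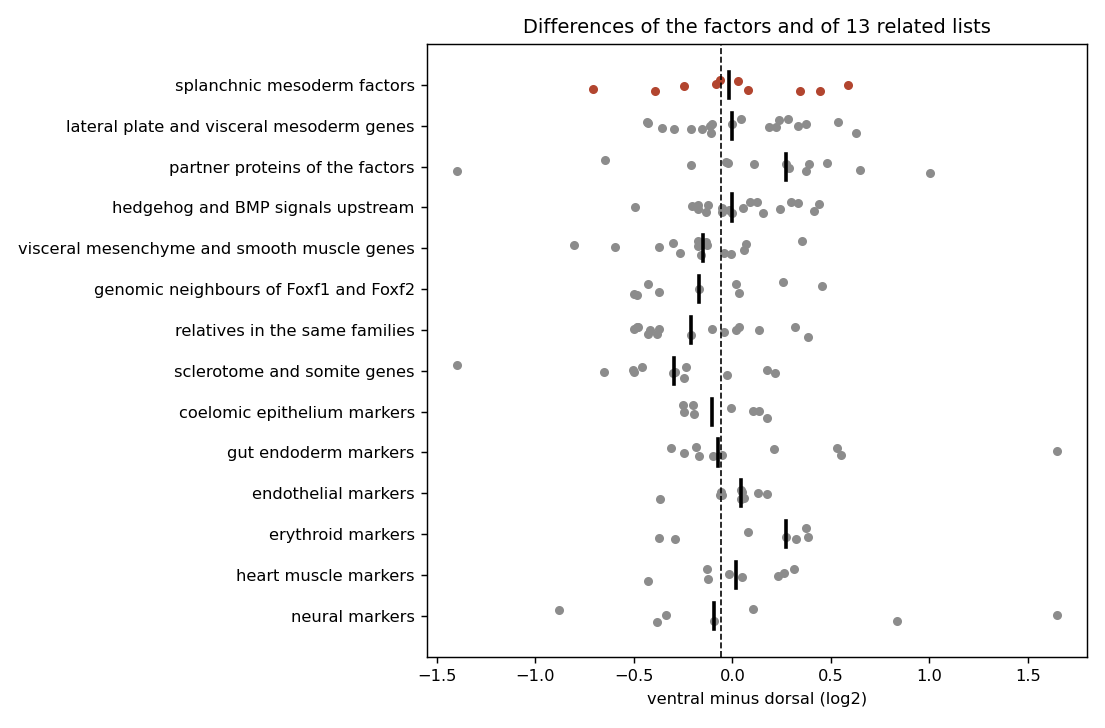
Ventral minus dorsal differences in RMA signal (log2) of the 10 factors (red) and of the genes of 13 related lists (grey), each dot a gene, with black bars at list medians and a dashed line at the median of all genes (-0.06). The factors spread from -0.71 to 0.59 around a median of -0.02, and the sclerotome list has a median of -0.30.

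The genes whose signal over the 6 arrays was most like the mean of the 10 factors were Hnrnpa2b1, Mtch2, Pdap1, Npm1 and Erh. Pearson correlations ran from 0.876 for Erh to 0.944 for Hnrnpa2b1 over 6 arrays. They were the 5 highest of 690 protein-coding genes with a mean of at least 5, and the arrays share embryos, amplification and normalization. The mean of the factors was 3.79, 3.98 and 3.82 in ventral arrays 1, 2 and 3, against 3.76, 3.93 and 3.89 in the dorsal arrays. It was lowest in array 1 and highest in array 2 of both regions, and ventral and dorsal values overlapped. Gata6, the factor with the widest range, 2.24, had that same order in both regions. The mean, and with it the choice of the 5 genes, may therefore largely follow Gata6. The mean without Gata6 was not tested.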

How the data were processed

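The authors deposited log2 signals made with RMA, a value for each probe set on each array. The submitters' processing notes name RMA and Affymetrix Expression Console, with no version. The log base was read from the range of the values. RNA was amplified from picogram amounts, per the labels' protocols, so low signals carry amplification error. The table held 25429 probe sets, of which 24675 had 1 gene symbol, 0 several and 754 none. Gene numbers tied all 24675 to the GRCm38.p6 table, used for names, classes and gene order. No source used here states the build behind the probe sets.

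Tissues were compared as ventral minus dorsal in limma 3.58.1 (R 4.3.3), lmFit and eBayes, on all 24675 genes, with Benjamini-Hochberg adjustment over all of them and two-sided tests. The replicate number was a block, because both regions came from the same embryos. The labels do not say that equal numbers mean the same embryo. The correlation of deviations from the group means was 0.04, -0.01 and 0.06 for numbers 1, 2 and 3, none of them over 0.1. For a single gene, exact permutation of 3 and 3 arrays without the block cannot give p below 0.1. Permutation within same-numbered pairs has fewer arrangements still, so tests rest on the spread shared across genes. These p-values reflect only how far these samples spread, which may be technical, and the number of arrays limits the precision. The procedure was also run on simulated data with independent noise, equal spread in both regions and no replicate effect. Its recovery is not reported here, so it does not tell which differences this design could miss. The factors and gene lists were chosen with earlier results of these data known. Named are all factors, all listed neighbours of Foxf1 and Foxf2, of each other list the 2 to 4 genes with the smallest p (Sox2 stands in the gut and neural lists), and the 5 genes most like the mean of the factors. Some genes of the lists are not reported here. Alternatives were fits without the block, other scalings, filters on dim genes, an intensity trend, array weights and left-out arrays.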

Additional observations from a re-analysis of the deposited data

How the results depend on the processing

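The count of factors past an adjusted p of 0.05 was 0 under all 16 alternatives, and the lowest adjusted p of a factor was 0.214, for Foxf2 without dorsal replicate 3. Over all genes the count was 0 with the replicate block and 1 with no replicate block. Leaving out arrays gave 0 to 5 genes over all genes and a median log2 difference of the factors from -0.14 to 0.11, with the lowest value without both arrays numbered 2 and the highest without ventral replicate 1. The block changed no call of a factor. With the array medians set equal the median difference of the factors was 0.03, against -0.02 in the main fit. Foxf2 kept its sign under all 16, from -0.94 to -0.53, and Foxf1, Gata5, Hand1, Prrx1 and Tcf21 kept theirs in every alternative that tested them, though Hand1 came to -0.0019 without ventral replicate 3. The scalings and filters turned no sign of a named gene, though Tcf3, Id2 and Id3 were not checked. The ventral share of genes at an unadjusted p under 0.05 was 57.7% without genes under the median. There 1164 genes, of fewer tested, were at that p against 2522 in all. Sign changes came with left-out arrays, over which differences ranged from -0.42 to 0.30 for Gata4, -0.11 to 1.01 for Gata6, -0.11 to 0.24 for Nkx2-3, -0.13 to 0.13 for Barx1, -0.20 to 0.29 for Foxl1, -0.051 to 0.084 for G630018N14Rik, -1.20 to 0.51 for Hbb-y, -0.19 to 2.67 for Sox2, -0.0018 to 0.28 for Kdr, -0.21 to 0.38 for Hnrnpa2b1, -0.021 to 0.55 for Mtch2, -0.17 to 0.39 for Pdap1, -0.063 to 0.19 for Npm1 and -2.19 to 1.14 for Erh. The cause was not tested. With no change of sign, left-out arrays moved Prrx1 between 0.19 and 0.51, Gata5 between -0.18 and -0.02, Smad6 between -0.80 and -0.30, Upk3b between -0.34 and -0.07 and Myl7 between 0.19 and 0.37. Nkx2-3 and Gata5 fell under a filter on dim genes. Fits without a single array had no block, and where a pair was left out, 2 pairs remained. Scan dates and probe-level values were not used here, so background correction and slide could not be varied.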

Other observations

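Markers of other tissues near the aorta gave no separation of ventral from dorsal tissue past the threshold of an adjusted p of 0.05 in limma. Over all genes 0% passed, 10.2% were at an unadjusted p under 0.05 and 42% had a positive difference. Of 8 coelomic epithelium markers 0 passed, 0 were at an unadjusted p under 0.05, with a median difference of -0.10, and Msln, a mesothelial surface protein, was at 3.26 ± 0.09 in ventral and 3.51 ± 0.06 in dorsal tissue (SD, n = 3 each). Upk3b, another mesothelial gene, had -0.20. Of 10 gut endoderm markers 0 passed, with 4 positive, 6 negative and a median of -0.07. An unadjusted p under 0.05 was reached by 2, Cldn6, a tight junction protein of early epithelia (0.55 ± 0.19, SE), and Foxa3, a factor of gut and liver endoderm (0.53 ± 0.19, SE), both ventral-higher in all pairs, where 4.32% of all genes were ventral-higher at that p. Cldn6 was at 0.33 without ventral replicate 3. Foxa2, a factor of endoderm and notochord, had -0.31, dorsal-higher in 3 of 3 pairs, as were 21.8% of all genes. Epcam, an epithelial adhesion protein named after its values were seen, had -0.24. Every dorsal array was above every ventral array for it, as for 12% of all genes. Of 10 endothelial markers 0 passed, 0 were at an unadjusted p under 0.05 and the median was 0.05, with -0.37 for Erg, an ETS factor of endothelium, and 0.18 for Kdr, a VEGF receptor. Without ventral replicate 1 Kdr was at 0.03, and without dorsal replicate 2 Erg was at -0.12. Of 7 erythroid markers 0 passed, 0 were at an unadjusted p under 0.05 and the median was 0.27, with 5 positive and 2 negative. Klf1 had 0.32 and Gata1 0.38, both red-cell factors, Hemgn, a nuclear protein of blood progenitors, 0.27, and Hbb-y, an embryonic globin, -0.37. Without both arrays numbered 3 Klf1 was at 0.14 and Gata1 at 0.06. Leaving out arrays moved Hemgn between 0.05 and 0.42 and Hbb-y between -1.20 and 0.51.

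Of 8 heart muscle markers, which share Gata4, Gata6 and Hand1 with the splanchnic layer, 0 passed, 0 were at an unadjusted p under 0.05 (1 without the block, Nkx2-5) and the median was 0.02, with 0.31 for Myl7, an atrial myosin light chain. Of 7 neural markers 0 passed, 2 (Pou3f2 and Nes) were at an unadjusted p under 0.05 and the median was -0.09. Over all genes 10.2% were at that p with the block and 11.2% without it. Pou3f2, a factor of neural progenitors, was at 3.69 ± 0.19 in ventral and 4.57 ± 0.38 in dorsal tissue, with an adjusted p of 0.384 by limma. Nes, an intermediate filament of neural progenitors, was at 5.29, 4.06 and 3.54 in the ventral arrays, against 3.63, 3.44 and 3.30 in the dorsal arrays, so that the ventral array with the highest Sox2 value also had the highest Nes value. Its unadjusted p was 0.033 with the replicate block and 0.077 without it, and without ventral replicate 1 its difference was 0.34 rather than 0.84.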
